A study of Mus musculus with 12 samples.

Results

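The variable (V) segments of the T cell receptor alpha and beta chains were taken as every gene whose symbol begins with Trav or Trbv in the GENCODE M21 annotation of the mouse genome (GRCm38). They made up 163 of the 35855 genes measured. The 128 Trav genes, 20 of them annotated as pseudogenes, lie on the plus strand of chromosome 14 between positions 52427928 and 53977678. The 35 Trbv genes, 13 of them pseudogenes, lie on chromosome 6 between positions 40891229 and 41558452. At least 3 counts in a library were found for 119 Trav and 30 Trbv genes.

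RNA-seq was performed on 12 libraries, described as sorted splenic CD8 T cells, 3 in each of 4 groups. They were made to ask what loss of TCF-1 changes in CD8 T cells before and after allogeneic transplant. TCF-1 is the transcription factor encoded by Tcf7. All donors had the C57BL/6 background and were either wild-type (WT) or TCF-1 flox x CD4cre mice (TCF-1 cKO). In the cKO mice the Cre is driven by CD4, so that the floxed gene is deleted from the double-positive stage of thymic development onward, and no mice with CD4cre alone are among the libraries. Pre-transplant libraries came from donor mice. Post-transplant libraries came from donor cells that carried H2Kb, sorted 7 days after CD3 T cells had been given to lethally irradiated BALB/c mice. In the paper's transplant protocol T cell-depleted WT bone marrow, of the same MHC haplotype as the donor T cells, was given with them. The design text names 3 different mice of each genotype for the pre-transplant libraries. Nothing says whether the post-transplant libraries came from separate recipients, and p-values for them measure the spread between these samples, which may be technical. The source label of the second TCF-1 cKO library at day 7 reads CD4, against its title, which was followed. Below, the 3 values of a group are given in the order of replicates 1, 2 and 3.

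Library totals ran from 4499177 to 9535384 estimated counts in TCF-1 cKO before transplant and from 18135020 to 32551905 in the other groups. The 5 CD8 T cell markers (Cd8a, Cd8b1 and the CD3 chains) were present in every group. Their sum lay between 3125 and 5167 CPM (counts scaled to a library total of 1000000) after transplant, between 1166 and 1234 CPM in WT before transplant and between 563 and 613 CPM in TCF-1 cKO before transplant. The 5 B cell markers summed to between 4389 and 5969 CPM before transplant and to under 44.3 CPM after it. Before transplant they exceeded the CD8 T cell markers, although the libraries are described as sorted CD8 T cells. Erythroid markers summed to between 2008 and 12100 CPM before transplant and between 99.5 and 434 CPM after it. Myeloid markers summed to between 1141 and 3077 CPM and between 53.9 and 183 CPM. Plasma cell markers (437 to 1760 CPM) and NK cell markers (36.4 to 178 CPM) before transplant were also lower after it. No marker was at 0 throughout a group. The 4 CD4 T cell markers summed to between 187 and 225 CPM in WT and to between 80.7 and 99.8 CPM in TCF-1 cKO before transplant. At day 7 the sums were between 9.88 and 50.3 CPM in WT and between 3.84 and 8.99 CPM in TCF-1 cKO. Before transplant Cd4 itself was at 49.5, 53.7 and 75.2 CPM in TCF-1 cKO, with Cd8a at 57.4, 66.3 and 47.7 CPM. In WT before transplant Cd4 was at 143, 132 and 106 CPM and Cd8a at 200, 131 and 187 CPM. The part of CD4 T cells and of these other cells in the stage and genotype differences below was not tested. Tcf7 was at 56.8, 79.0 and 97.1 CPM in TCF-1 cKO and at 152, 115 and 205 CPM in WT before transplant. At day 7 it was at 8.99, 9.48 and 9.32 CPM in TCF-1 cKO and at 17.2, 12 and 6.89 CPM in WT. The library labelled WT post-transplant replicate 3 was therefore below all TCF-1 cKO libraries in the targeted gene, its value is the last of each WT list at day 7, and tests of position, evenness, distance and single-gene calls are also given without it. In these bulk samples, fewer T cells and less receptor RNA per cell cannot be told apart, so most values below are shares within a locus.

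Each receptor chain is made by joining 1 V segment to a joining (J) segment, with a diversity segment between them in the beta chain. The beta locus is rearranged before thymocytes express CD4. The alpha locus is rearranged at the double-positive stage and in successive rounds, which begin with the V segments nearest the J segments and the J segments (Traj) nearest the V segments, and then reach outward on both sides. The Trav array of C57BL/6 mice holds, beside the genes nearest the J segments, duplicated stretches whose genes carry the letters d and n in their names.

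The copies limit what can be read from single Trav genes, since they differ by few bases. Of the 128 Trav genes, 55 carry neither letter, 39 are d copies and 34 are n copies. An identical transcript sequence was shared with another Trav gene by 34, and in 97 less than 50% of the 31-base words, the length Kallisto matches by default, were found in no other Trav gene. No Trbv gene was below that level. Trav3-3, the Trav gene with the highest mean share over all libraries, is shown with its copies as an example. Over the last 120 bases of the V exon (GENCODE M21, GRCm38, plus strand, 5′ to 3′), Trav3-3 lies at chr14:53666387-53666506, Trav3d-3 at chr14:52972919-52973038 and Trav3n-3 at chr14:53284056-53284175, and capitals mark the bases that differ among the 3 copies.
Trav3-3: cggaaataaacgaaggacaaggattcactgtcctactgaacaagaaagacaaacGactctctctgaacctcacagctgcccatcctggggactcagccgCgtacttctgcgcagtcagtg
Trav3d-3: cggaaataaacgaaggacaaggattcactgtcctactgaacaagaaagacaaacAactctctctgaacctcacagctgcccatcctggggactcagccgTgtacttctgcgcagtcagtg
Trav3n-3: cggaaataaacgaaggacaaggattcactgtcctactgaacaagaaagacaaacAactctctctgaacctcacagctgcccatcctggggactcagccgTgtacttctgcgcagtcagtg
The d and n copies are identical over their 427 bases and differ from Trav3-3 at 2 of the 120 bases shown, and 97.9% of aligned bases are the same over the whole transcripts. Kallisto can divide reads between such copies only by its estimation step, so the shares of Trav3d-3 and Trav3n-3 are equal in every library.

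The same stretch of 3 genes near the J segments whose 31-base words are all unique among Trav genes is shown, since their shares need no division between copies. They are Trav17 at chr14:53806996-53807115, Trav19 at chr14:53845708-53845827 and Trav21-dv12 at chr14:53876633-53876752.
Trav17: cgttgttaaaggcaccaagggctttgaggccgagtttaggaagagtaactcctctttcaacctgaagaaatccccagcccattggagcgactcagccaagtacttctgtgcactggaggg
Trav19: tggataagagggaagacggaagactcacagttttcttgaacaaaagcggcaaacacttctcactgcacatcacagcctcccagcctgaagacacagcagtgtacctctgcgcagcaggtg
Trav21-dv12: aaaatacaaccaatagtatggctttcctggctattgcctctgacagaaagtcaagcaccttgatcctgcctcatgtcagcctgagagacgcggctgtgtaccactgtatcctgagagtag

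Trav transcripts in TCF-1 cKO libraries came from genes nearer to the J segments than in WT libraries, at both stages. For each library the Trav genes were ranked from the J-nearest gene, Trav23 at rank 1, to the farthest, Trav1 at rank 128, and ranks were averaged with the shares of the Trav counts as weights. At day 7 the mean rank was 38.3, 35.8 and 44.0 in TCF-1 cKO and 59.0, 60.6 and 61.7 in WT. Before transplant it was 52.8, 57.8 and 49.3 in TCF-1 cKO and 66.2, 61.1 and 64.4 in WT. The groups did not overlap at either stage, and the group means with their SD (n = 3 each) were 39.4 ± 4.23 and 60.4 ± 1.34 at day 7, and 53.3 ± 4.29 and 63.9 ± 2.59 before transplant. Over both stages TCF-1 cKO minus WT was -15.8 ranks (exact permutation test within stages, two-sided, p = 0.005, the smallest that 400 arrangements can give, and 0.0167 after Benjamini-Hochberg adjustment over 10 tests of position and evenness). Within a stage, 3 libraries against 3 cannot give an exact p below 0.1, which both stages reached. The difference was -21.0 ranks at day 7 and -10.6 before transplant, a change of -10.4 ranks. A permutation test of that change, with genotype labels permuted within each stage, gave p = 0.37. Its arrangements also move the genotype difference itself, so that test cannot decide whether the difference changed between stages.

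**Figure D1:**
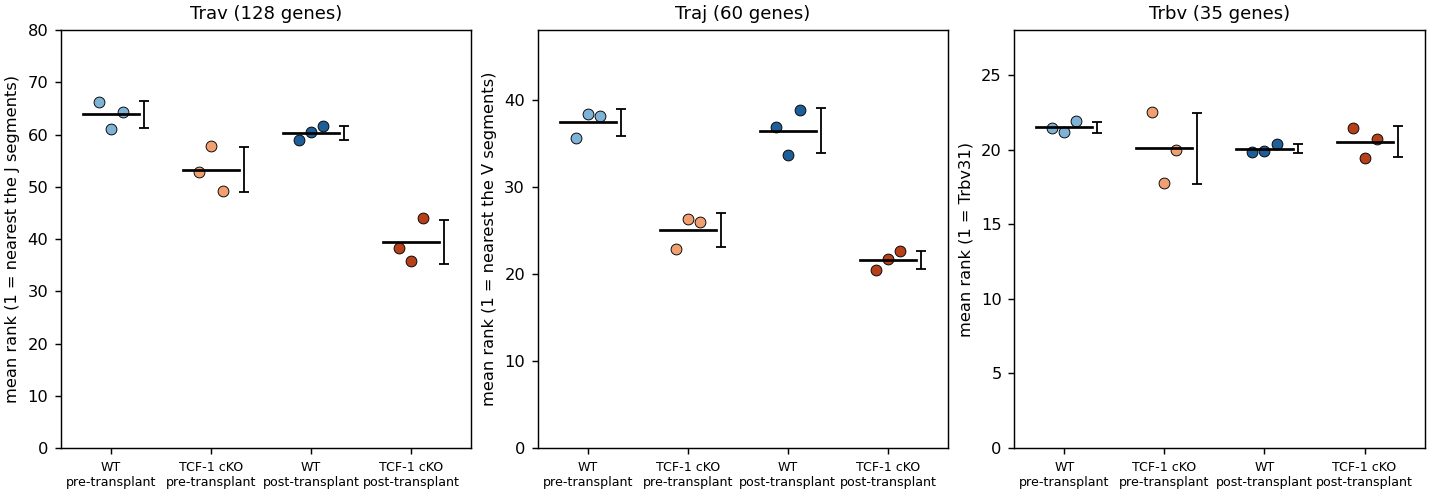
Share-weighted mean rank of Trav (left), Traj (middle) and Trbv genes (right) in each library by group, with group means as horizontal lines and SD as bars (n = 3). The TCF-1 cKO libraries lie below the WT libraries of the same stage for Trav and Traj, without overlap, and on both sides of them for Trbv.

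The same shift was seen in shares of the locus. The 32 J-nearest Trav genes held 63.4%, 66.0% and 50.4% of the Trav counts in TCF-1 cKO at day 7, against 26.7%, 27.8% and 23.9% in WT. Before transplant they held 30.9%, 29.8% and 40.7% in TCF-1 cKO and 23.6%, 20.7% and 21.1% in WT. The 32 farthest genes held 8.84%, 9.12% and 11.2% in TCF-1 cKO and 18.5%, 19% and 21.3% in WT at day 7, again without overlap. Genes with neither letter in their names held 72.5%, 76.2% and 68.2% of the counts in TCF-1 cKO and 49.0%, 43.4% and 42.4% in WT at day 7, and 58.4%, 60.3% and 57.1% against 36.4%, 43.1% and 43.6% before transplant. These Trav shares rested on 312 to 646 counts a library in TCF-1 cKO before transplant and on 2096 to 4684 in the other groups.

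The alpha J segments, which are not V genes but are joined to them, were shifted in the matching direction. Traj genes were ranked from the V-nearest, Traj61 at rank 1, to Traj1 at rank 60. Their mean rank was 20.5, 21.7 and 22.6 in TCF-1 cKO and 36.9, 33.7 and 38.9 in WT at day 7. Before transplant it was 22.8, 26.4 and 26.0 in TCF-1 cKO and 35.7, 38.4 and 38.2 in WT. The groups did not overlap at either stage, and TCF-1 cKO minus WT was -13.6 ranks over both (exact permutation test within stages, two-sided, p = 0.005, adjusted 0.0167), with -14.9 at day 7 and -12.3 before transplant. The 15 V-nearest Traj genes held between 38.0% and 46.0% of the Traj counts in the 6 TCF-1 cKO libraries and between 4.54% and 13.9% in the 6 WT libraries. The 46.0%, in TCF-1 cKO pre-transplant replicate 1, includes 16.0% from the pseudogene Traj51, which had no count in any other library. A Traj exon is short, between 29 and 72 bases, and Traj counts were low, with 20 to 50 a library in TCF-1 cKO before transplant and 88 to 349 elsewhere.

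Among the Traj genes that are not pseudogenes, the pair with the highest mean share in each end of the locus is shown whole, with capitals for the codons of the F-G-X-G motif (phenylalanine, glycine, any residue, glycine) that marks J segments. That motif was found in 42 of 51 such genes, or 82.4%. Traj56 at chr14:54159263-54159325 and Traj49 at chr14:54168686-54168747 are near the V segments, and Traj27 at chr14:54192303-54192361 and Traj18 at chr14:54200777-54200842 are farther away (plus strand).
Traj56: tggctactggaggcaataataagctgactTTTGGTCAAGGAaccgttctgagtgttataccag
Traj49: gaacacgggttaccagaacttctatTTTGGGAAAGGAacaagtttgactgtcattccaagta
Traj27: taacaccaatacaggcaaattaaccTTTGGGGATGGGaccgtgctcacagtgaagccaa
Traj18: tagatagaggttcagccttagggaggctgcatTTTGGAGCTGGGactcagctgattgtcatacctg
Traj56 took 10%, 5% and 4.65% of the Traj counts in TCF-1 cKO before transplant and had no count in WT, where 3 counts would be 0.86%, 1.65% and 1.02%. At day 7 it took 10.1%, 16.7% and 2.19% in TCF-1 cKO and 0.503%, 0% and 1.14% in WT. Traj18, which encodes the J segment of the invariant NKT cell receptor, went the other way at day 7, with 2.16%, 3.51% and 2.92% in TCF-1 cKO and 8.04%, 5.06% and 6.82% in WT. Before transplant its shares overlapped, at 18.0%, 25% and 4.65% in TCF-1 cKO and 2.01%, 4.95% and 8.84% in WT.

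**Figure D2:**
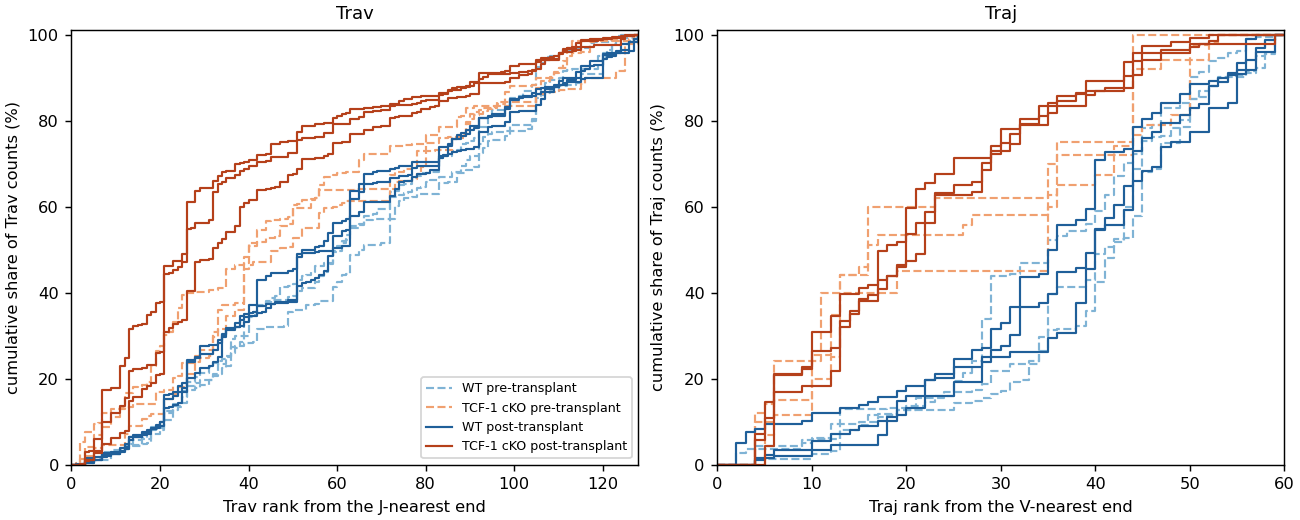
Cumulative share of the locus counts (percent) along Trav rank from the J-nearest end (left) and along Traj rank from the V-nearest end (right), 1 line per library, dashed before and solid after transplant. The TCF-1 cKO lines rise earlier than the WT lines in both loci; the 32 J-nearest Trav genes held 50.4% to 66.0% in TCF-1 cKO and 23.9% to 27.8% in WT at day 7.

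Both differences stayed negative and past an exact permutation p of 0.05 when the deposited TPM values were used, when each library's trends with GC content and length were removed, and when pseudogenes were left out or libraries were thinned to equal counts. With each library left out in turn, the Trav difference lay between -16.99 and -14.82 ranks and the Traj difference between -14.3 and -13.02. Without the library labelled WT post-transplant replicate 3 they were -15.5 and -13.0, each with an exact permutation p of 0.005. Among genes without d or n copy names the Trav difference was -9.0 ranks (permutation p = 0.035), and among genes with at least 50% unique words it was -30.2 (permutation p = 0.01). The delta chain shares some V segments with the alpha chain, and 6 of the 10 Trav genes with dv in their names are among the 32 J-nearest. Without all 10 the difference was -14.1 (permutation p = 0.005).

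Some transcripts of other T cells and of immature thymocytes also did not overlap between the genotypes. None of the gamma-delta, thymocyte and rearrangement genes named here passed the edgeR test. Among the CD4 T cell markers at day 7, Zbtb7b was lower in TCF-1 cKO without overlap (log2 fold change -3.34, edgeR adjusted p = 0.0621). Foxp3 was called lower with overlap (-3.99, edgeR adjusted p = 0.0718), and Cd4 and Cd40lg overlapped and were not called. Over all genes tested there, 15.4% were called lower. The 4 gamma-delta T cell markers summed to between 119 and 170 CPM in TCF-1 cKO and between 13.8 and 74.0 CPM in WT at day 7, and overlapped before transplant. Tcrg-C2 among them was at 127, 103 and 159 CPM against 25.8, 10.6 and 67.7 CPM at day 7 (edgeR adjusted p = 0.101). Trdc overlapped between the genotypes at day 7, at 10.2, 12.1 and 2.30 CPM in TCF-1 cKO and 3.48, 1.68 and 3.10 CPM in WT. Ptcra, the pre-T alpha chain of immature thymocytes, was at 15.2, 17.5 and 10 CPM in TCF-1 cKO and 2.02, 7.53 and 1.79 CPM in WT before transplant (edgeR adjusted p = 0.303), and it overlapped at day 7. Of the genes that act in receptor rearrangement, Dntt and Rag1 overlapped between genotypes before transplant, and Rag2 was at 4.23, 16.2 and 1.10 CPM in TCF-1 cKO and 0.978, 1.03 and 0.823 CPM in WT (edgeR adjusted p = 0.279), where the groups overlapped once the libraries were scaled by TMM, edgeR's trimmed mean normalization. The part of these transcripts in the Trav and Traj shares was not tested beyond the removal of the dv genes.

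From before transplant to day 7 the mean Trav rank differed by -13.9 in TCF-1 cKO, without overlap, and by -3.5 in WT, with overlap. Over both genotypes the difference was -8.73 ranks (exact permutation test within genotypes, two-sided, p = 0.01, adjusted 0.025), and it was -4.08 with a permutation p of 0.285 once d and n copies were left out. Without the library labelled WT post-transplant replicate 3 it was -9.04 (permutation p = 0.01). For Traj it was -2.2 ranks (exact permutation test, p = 0.09).

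The Trbv genes, by contrast, overlapped between genotypes in position. The Trbv genes were ranked from Trbv31, which lies beyond the constant genes on the minus strand, to Trbv1 at rank 35. Their mean rank was 21.5, 19.4 and 20.7 in TCF-1 cKO and 19.9, 19.9 and 20.4 in WT at day 7, and 22.5, 17.8 and 19.97 against 21.4, 21.2 and 21.9 before transplant. The groups overlapped at both stages, and TCF-1 cKO minus WT was -0.46 ranks (exact permutation test within stages, two-sided, p = 0.615), a value that moved between -1.07 and 0.12 as single libraries were left out.

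Among single Trav genes, most of those higher in TCF-1 cKO at day 7 lay near the J segments, and those lower lay mostly elsewhere. The share did not overlap between genotypes for 32 of the 128 genes, 15 higher and 17 lower in TCF-1 cKO, and the median difference over all 128 was -0.032 percentage points. For comparison, 39.3% of all 16026 genes tested in this contrast did not overlap in CPM scaled by TMM, as in all such shares below, 20.5% higher and 18.8% lower. Of the 15 higher genes 11 are among the 32 J-nearest, and of the 17 lower genes 1 is there and 9 are among the 32 farthest. Another 2 higher and 7 lower genes lie between, and 2 higher genes are among the farthest. Before transplant 7 genes were higher and 13 lower, 2 and 0 of them among the J-nearest, where 29.1% of 18757 genes tested did not overlap in CPM, 18.3% higher and 10.8% lower. Those percentages are of levels, and not of shares within the locus. In CPM, 5 of the 68 Trav genes tested were higher and 17 lower without overlap at day 7. Before transplant 2 of 40 were higher and 14 lower in CPM.

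Trav19, at rank 5, was higher in TCF-1 cKO without overlap at both stages and was the only Trav gene to be so. Its shares were 1.76%, 1.93% and 2.79% in TCF-1 cKO and 0.487%, 1.12% and 0.879% in WT before transplant. At day 7 they were 2.91%, 2.05% and 1.44% against 0.448%, 0.795% and 0.286%. The lowest of these rested on 6 counts of 2096 (95% Wilson interval 0.131% to 0.623%). No molecular identifiers were used, and these intervals and the limits for a count of 0 therefore hold for counting error alone. Trav21-dv12, at rank 3, separated the genotypes before transplant, with 2.35%, 1.93% and 2.63% in TCF-1 cKO and 0.626%, 0.489% and 0.377% in WT, and overlapped at day 7.

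The most used Trav genes of the TCF-1 cKO libraries at day 7 also lie toward the J segments. Trav3-3, at rank 21, took 18.1%, 8.51% and 9.86% in TCF-1 cKO and 6.15%, 3.28% and 6.25% in WT. Trav16, at rank 13, took 6.17%, 6.61% and 6.88% in TCF-1 cKO and 2.37%, 1.57% and 2.06% in WT. Trav17, at rank 7, took 3.89%, 14.3% and 2.16% against 0.875%, 1.74% and 0.525%. The groups did not overlap for any of these genes. Trav12-2, at rank 26, had a higher mean share in TCF-1 cKO than Trav16 and Trav17, but the genotypes overlapped. It took 7.65%, 12.1% and 6.58% in TCF-1 cKO and 4.99%, 7.53% and 2.47% in WT. Trav16 is a near copy of Trav16n, which was at 3.13%, 2.12% and 1.31% in TCF-1 cKO and 3.5%, 3.08% and 10.5% in WT, and the Trav16 family as a whole overlapped, at 10.2%, 9.03% and 8.72% against 6.79%, 7.07% and 12.8%. The split between these copies is uncertain. The second value of Trav17 was 342 of 2393 counts (95% Wilson interval 12.9% to 15.8%) and stood apart from the other 2 TCF-1 cKO libraries. Trav14-1, at rank 32, took 6.42%, 1.57% and 2.53% in TCF-1 cKO and 0.99%, 0.0302% and 0.969% in WT.

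Trav12n-3, at rank 63, was the only Trav gene lower in TCF-1 cKO without overlap at both stages. It had no count in TCF-1 cKO before transplant, where 3 counts would be 0.88%, 0.963% and 0.464% of the Trav counts, and took 4.45%, 1.51% and 3.26% in WT. At day 7 it took 1.08%, 1.04% and 1.81% in TCF-1 cKO and 4.58%, 12.8% and 3.16% in WT. Its aligned bases are identical to those of Trav12d-3, which was read at 0.772%, 0.347% and 0.696% in TCF-1 cKO before transplant and at 0% in WT, so the split between this pair of copies is uncertain. The Trav12 family as a whole, 10 genes, was lower without overlap before transplant, at 3.81%, 5.45% and 6.96% against 14.7%, 11.9% and 13.0%, and overlapped at day 7. Trav7d-2 (rank 120), Trav12-1 (rank 34) and Trav12d-2 (rank 99) were also lower without overlap at day 7, at mean shares of 0.168%, 0.783% and 0.783% in TCF-1 cKO and 2.81%, 2.61% and 2.16% in WT.

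**Figure D3:**
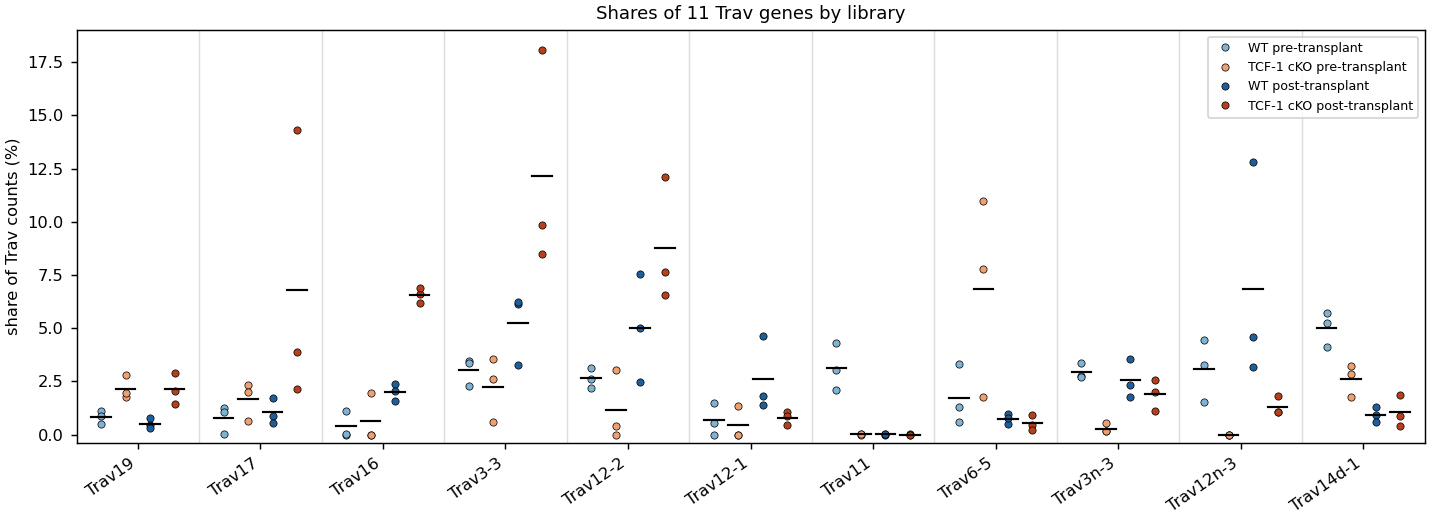
Share of the Trav counts (percent) of 11 Trav genes, ordered from the J-nearest (left) to the farthest (right), 3 libraries per group as points and group means as lines. Trav19 is higher in TCF-1 cKO at both stages and Trav12n-3 lower, and Trav3-3, Trav16 and Trav17 are highest in TCF-1 cKO at day 7.

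Some well used Trav genes differed in share between the stages. Trav16 had 0%, 1.93% and 0% in TCF-1 cKO and 1.09%, 0% and 0.0483% in WT before transplant, so that it was higher at day 7 in both genotypes without overlap. Trav12-2, at rank 26, went from 0%, 3.05% and 0.39% to 7.65%, 12.1% and 6.58% in TCF-1 cKO, and from 2.2%, 3.15% and 2.62% to 4.99%, 7.53% and 2.47% in WT, where the stages overlapped. Trav16n, at rank 51, with 98.5% of its aligned bases as in Trav16, went from 0%, 0.905% and 1.17% to 3.5%, 3.08% and 10.5% in WT, with the highest value in the library labelled WT post-transplant replicate 3. Without overlap 9 of 128 Trav genes were higher and 8 lower at day 7 in WT, where 12.9% of 16790 genes tested were higher and 20.3% lower in CPM. In TCF-1 cKO 17 were higher and 8 lower, where 23% of 18535 genes were higher and 24% lower. Those percentages are of levels among the genes tested, and not of shares within the locus. In CPM, 24 of the 80 Trav genes tested were higher and 6 lower without overlap in WT. In TCF-1 cKO 27 of 44 were higher and 3 lower.

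Before transplant the genes that separated the genotypes were otherwise spread along the locus, and most were copies. The identical pair Trav5n-4 and Trav5d-4 each took 1.91%, 3.28% and 2.96% in TCF-1 cKO and 0.701%, 0.0349% and 1.41% in WT. Trav13n-4 took 2.18%, 2.17% and 4.32% against 0.392%, 0.477% and 0.0419%. The identical pair Trav3n-3 and Trav3d-3 each took 0.147%, 0.16% and 0.542% in TCF-1 cKO and 3.35%, 2.75% and 2.72% in WT. The identical pair Trav14d-1 and Trav14n-1 each took 3.24%, 2.85% and 1.77% in TCF-1 cKO and 5.72%, 4.1% and 5.24% in WT. At day 7 none of these pairs separated the genotypes. The highest Trav gene of a TCF-1 cKO library before transplant was Trav6-5 in replicates 1 and 2, at 11% and 7.78%, and Trav7-5 in replicate 3, at 4.33%; the Trav6-5 shares of WT were 0.605%, 3.31% and 1.3% and overlapped.

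Trav11 and its copies encode the V segment of the invariant NKT cell receptor. Their sum was 1.17%, 0% and 1.08% of the Trav counts in TCF-1 cKO and 2.09%, 4.3% and 3.18% in WT before transplant. At day 7 it was 0.327%, 0% and 0% in TCF-1 cKO and 0.427%, 0.383% and 1.24% in WT. TCF-1 cKO was below WT without overlap at both stages, and WT was lower at day 7 than before transplant without overlap. Where a sum was 0, 3 counts would be 0.963% before transplant and 0.125% and 0.0941% at day 7. Within the family, WT reads were placed in Trav11 before transplant and in Trav11d at day 7, and the aligned bases of these genes are identical, so that swap is not a change in usage that these files can resolve. The sum of the CD4 T cell markers was also lower in TCF-1 cKO without overlap at both stages. Its part in the Trav11 shares, and in the Trav1 shares below, was not tested.

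Trav1, the V segment of the mucosal-associated invariant T cell receptor and the farthest from the J segments, took 1.09%, 0.972% and 1.62% in WT at day 7 and 0%, 0.209% and 0.22% in TCF-1 cKO. Before transplant the groups overlapped, at 0.293%, 2.25% and 0% in TCF-1 cKO and 0%, 0.419% and 0% in WT.

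Trav usage was also less even in TCF-1 cKO when genes were counted, but not when families were. Evenness was measured as the effective number of genes, the number of equally used genes that would give the same Shannon entropy. At day 7 it was 37.0, 34.9 and 47.0 in TCF-1 cKO and 59.0, 49.8 and 52.6 in WT. Before transplant it was 37.7, 40.8 and 51.6 in TCF-1 cKO and 52.0, 64.2 and 58.2 in WT. The groups did not overlap, and TCF-1 cKO minus WT was -14.5 genes over both stages (exact permutation test within stages, two-sided, p = 0.005, adjusted 0.0167), and -14.8 with p = 0.015 by the same permutation test without the library labelled WT post-transplant replicate 3. The 10 most used Trav genes held 56.2%, 58.0% and 46.8% in TCF-1 cKO and 38.2%, 45.1% and 42.4% in WT at day 7, and overlapped before transplant, at 46.6%, 44.0% and 34.7% against 38.5%, 33.7% and 36.3%.

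When the genes were summed into 23 Trav families, the effective number was 11.3, 11.5 and 12.4 families in TCF-1 cKO and 12.3, 10.5 and 11.8 in WT at day 7. Before transplant it was 11.9, 12.1 and 13.6 against 11, 11.7 and 11.7, without overlap and with TCF-1 cKO the higher. Over both stages the difference was 0.62 families (permutation p = 0.205), opposite in sign to that over genes. As given above, d and n copies together took lower shares in TCF-1 cKO than in WT. Before transplant the gap between the genotypes was small, at 51.6 for the highest TCF-1 cKO and 52.0 for the lowest WT library, and TCF-1 cKO held fewer counts. Thinned to equal Trav counts, the difference over genes was -10.99 over both stages (permutation p = 0.01), and the genotypes overlapped before transplant, with TCF-1 cKO replicate 3 at 47.6 and WT replicate 1 at 46.1.

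Single families separated the genotypes as well. At day 7 the Trav9 family, 11 genes, took 2.07%, 2.09% and 2.04% in TCF-1 cKO and 9.05%, 12.3% and 5.25% in WT, and the Trav7 family, 13 genes, took 4.15%, 4.1% and 8.47% against 13.0%, 10.5% and 10.4%. The Trav4 family, 9 genes, took 6.87%, 6.23% and 11.8% in TCF-1 cKO and 4.38%, 4.62% and 2.24% in WT. None of these overlapped at day 7, and all 3 overlapped before transplant. The Trav14 family, 9 genes, was lower in TCF-1 cKO before transplant (17.0%, 11.2% and 10.1% against 23.2%, 19.4% and 18.3%) and higher at day 7 (12.4%, 10.7% and 11.9% against 9.93%, 4.65% and 10.4%).

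**Figure D4:**
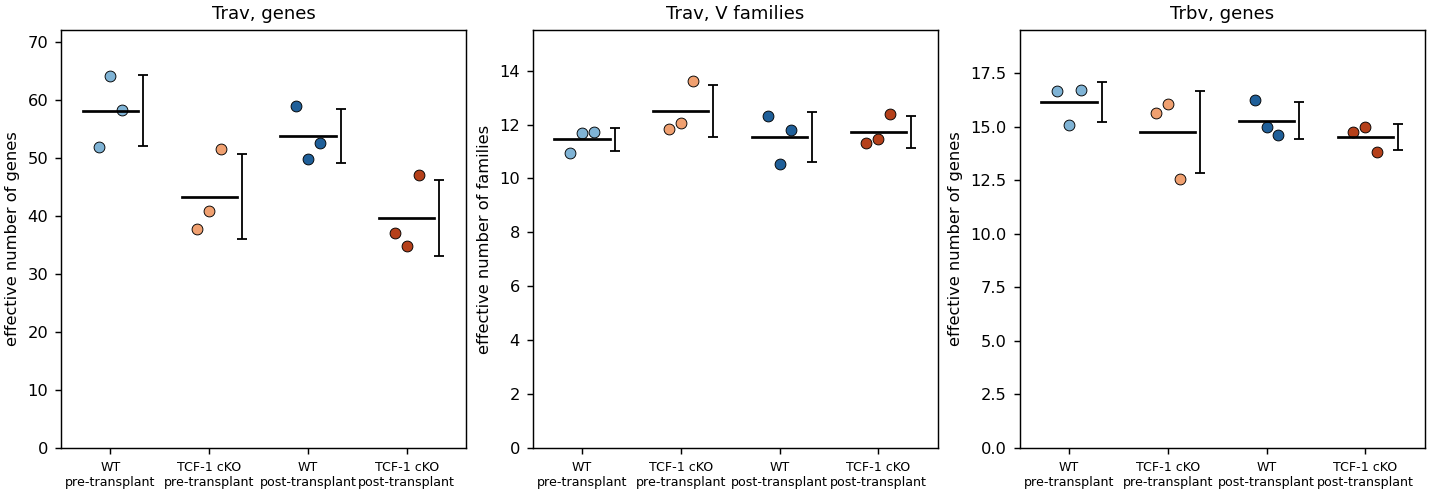
Effective number of Trav genes (left), of Trav families (middle) and of Trbv genes (right) in each library by group, with group means as lines and SD as bars (n = 3). TCF-1 cKO lies below WT for Trav genes, at 34.9 to 47.0 against 49.8 to 59.0 at day 7, but not for Trav families.

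Trbv evenness overlapped between the genotypes at both stages. The effective number was 14.7, 15.0 and 13.8 genes in TCF-1 cKO and 16.2, 15.0 and 14.6 in WT at day 7, and 15.6, 16.0 and 12.6 against 16.7, 15.1 and 16.7 before transplant. TCF-1 cKO minus WT was -1.09 genes (exact permutation test within stages, two-sided, p = 0.125), or -1.53 (permutation p = 0.01) once GC content and length trends were removed, and -1.25 (permutation p = 0.075) without the library labelled WT post-transplant replicate 3. From before transplant to day 7 the difference was -0.56 (permutation p = 0.42). The 10 most used Trbv genes held between 75.3% and 86.6% of the Trbv counts in every library.

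The most used Trbv gene over all libraries was Trbv16, followed by Trbv1, Trbv13-2, Trbv19, Trbv12-2, Trbv13-1, Trbv13-3, Trbv29, Trbv3 and Trbv12-1. Neighbours in this order overlapped in their shares over the 12 libraries. The 3 Trbv13 genes together, which encode the beta chains long known as V beta 8, held between 11% and 30.1%.

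Among Trbv genes without overlap at day 7, the largest difference in mean share was in Trbv14, which took 1.41%, 1.88% and 1.77% in TCF-1 cKO and 5.22%, 7.48% and 3.57% in WT. Trbv13-2 was also lower, at 7.59%, 7.26% and 5.32% against 10.2%, 9.24% and 11.4%. Trbv15 took 0.834%, 0.939% and 0.752% against 3.48%, 1.59% and 1.81%. Trbv19 was higher in TCF-1 cKO, at 7.04%, 6.37% and 12.3% against 6.14%, 3.9% and 5.52%, and so was Trbv2, at 6.63%, 2.63% and 4.51% against 2.12%, 0.693% and 1.68%. In all, 3 of 35 Trbv genes were higher and 4 lower without overlap at day 7, where 39.3% of all genes tested did not overlap in CPM. Before transplant 3 were lower, where the share over all genes was 29.1%, among them Trbv17, at 1.25%, 2.33% and 0.733% against 4.21%, 2.57% and 5.92%, and Trbv12-1, at 1.25%, 1.17% and 1.95% against 2.07%, 3.14% and 2.76%. No Trbv gene was on the same side in share at both stages. In CPM, which compares levels, 1 of the 22 Trbv genes tested was higher and 2 lower without overlap at day 7. Before transplant 0 of 20 were higher and 13 lower in CPM.

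From before transplant to day 7, 4 Trbv genes were higher and 3 lower in share without overlap in WT, and 4 higher and 4 lower in TCF-1 cKO. Over all genes tested, 33.2% in WT and 47% in TCF-1 cKO did not overlap between the stages in CPM, which compares levels and not shares. In CPM, 18 of the 22 Trbv genes tested in WT and 19 of 20 in TCF-1 cKO were higher without overlap, and 0 were lower. In both genotypes the shares of Trbv29 and Trbv12-1 were higher and that of Trbv20 was lower at day 7. Trbv29 went from 1.96%, 3.17% and 2.19% to 6.84%, 4.54% and 8.19% in WT, and from 2.82%, 5.45% and 0.733% to 10.9%, 12.5% and 7.97% in TCF-1 cKO. Trbv12-1 reached 5.33%, 5.83% and 5.8% in WT and 4.35%, 4.2% and 13.4% in TCF-1 cKO. Trbv20 went from 2.51%, 2.1% and 3.09% to 1.34%, 0.416% and 1.35% in WT, and from 1.25%, 7.78% and 3.3% to 0.866%, 0.639% and 0.448% in TCF-1 cKO. Trbv16 was higher without overlap in WT, going from 7.94%, 8.4% and 7.58% to 9.34%, 16.9% and 18.5%, and overlapped in TCF-1 cKO, at 3.76%, 9.34% and 10.5% before and 9.41%, 10.6% and 13.8% after. Trbv31 was at 5.33%, 2.33% and 16.1% in TCF-1 cKO before transplant and at 0.458%, 1.64% and 0.959% at day 7, and its WT values overlapped, at 5.63%, 8.81% and 1.56% before and 1.84%, 1.43% and 0.702% after.

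**Figure D5:**
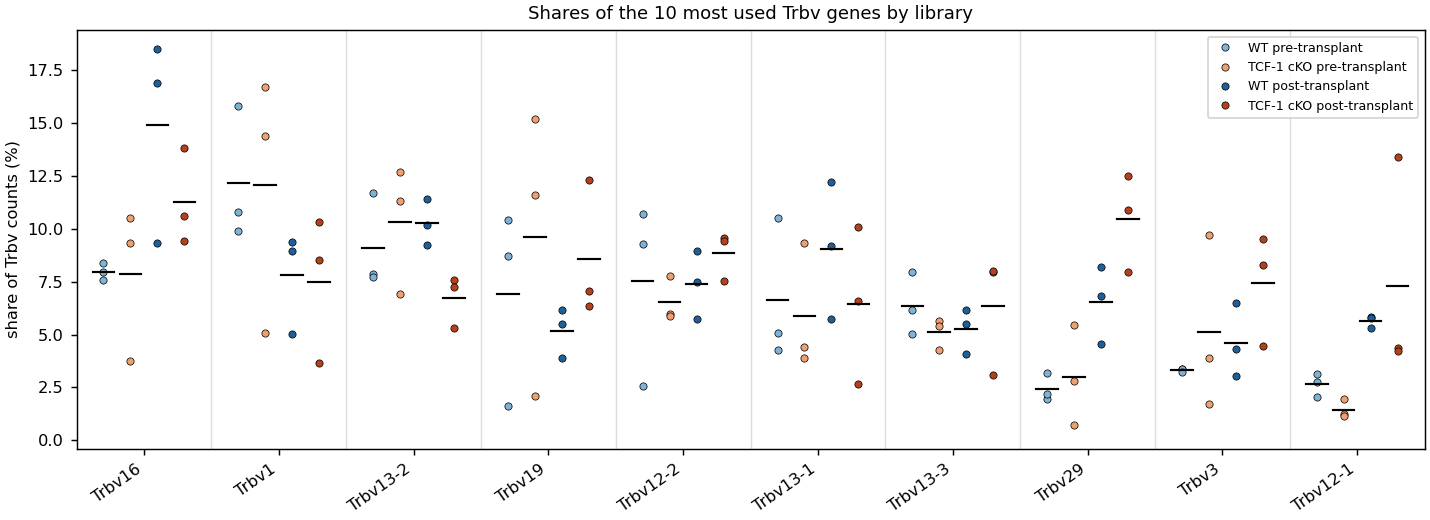
Share of the Trbv counts (percent) of the 10 most used Trbv genes, ordered by mean share, 3 libraries per group as points and group means as lines. Trbv29 and Trbv12-1 are higher at day 7 than before transplant in both genotypes, and the other genes overlap between the stages in 1 or both genotypes.

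BALB/c mice, the recipients, express the class II molecule I-E and endogenous superantigens that bind receptors with certain beta V segments, and C57BL/6 donors lack I-E. The 5 segments known for such binding, Trbv12-1, Trbv12-2, Trbv15, Trbv16 and Trbv26, together took 21.9%, 18.8% and 26.4% in WT before transplant and 25.8%, 33.9% and 32.2% at day 7. In TCF-1 cKO they took 13.8%, 23.7% and 22.0% before and 24.3%, 23.4% and 37.8% at day 7. The group means were 8.26 percentage points higher at day 7 in WT and 8.66 in TCF-1 cKO, and the stages overlapped in both genotypes. Within the list Trbv12-1 was higher at day 7 without overlap in both genotypes and Trbv16 in WT. Trbv15 and Trbv26 were lower at day 7 in TCF-1 cKO, at 0.752% to 0.939% and 0.0928% to 0.373%.

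Whole usage profiles were compared by Bray-Curtis distance, which is 0 for equal shares and 1 for no gene in common. For Trav, TCF-1 cKO and WT libraries were 0.496 apart on average at day 7 (9 pairs), against 0.365 among TCF-1 cKO and 0.381 among WT libraries. Between-group minus within-group distance was 0.123 at day 7, 0.124 before transplant, 0.080 between the stages in WT and 0.176 in TCF-1 cKO, each with the smallest one-sided exact permutation p of 0.1. For Trbv the excess was 0.036 between genotypes at day 7, 0.075 between stages in WT and 0.067 in TCF-1 cKO (exact permutation p = 0.1 each). Between genotypes before transplant it was -0.011 (exact permutation p = 0.5), where TCF-1 cKO libraries with 257 to 819 Trbv counts differed from each other by 0.368. Without the library labelled WT post-transplant replicate 3 the excess for Trav was 0.129 between genotypes at day 7 and 0.084 between stages in WT, and for Trbv 0.032 (exact permutation p = 0.3) and 0.052 (exact permutation p = 0.2).

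Summed V transcripts differed between the stages mainly in Trbv, which was higher at day 7 in both genotypes without overlap. Trbv genes together stood at 60.6, 57.1 and 85.9 CPM in TCF-1 cKO and 159, 169 and 157 CPM in WT before transplant, and at 659, 998 and 592 CPM against 598, 334 and 1124 CPM at day 7. Trav genes together stood at 64.7, 69.3 and 67.8 CPM in TCF-1 cKO and 99.99, 151 and 95.6 CPM in WT before transplant, and at 148, 130 and 130 CPM against 144, 121 and 116 CPM at day 7. On the log2 CPM scale the Trbv total differed by 3.45 between the stages in TCF-1 cKO and by 1.91 in WT, and the Trav total by 1.02 and 0.16. The direction for Trav depended on the scale: relative to the constant genes it was -0.79 in TCF-1 cKO and -0.61 in WT, and in TPM it was -0.065 in WT. For Trbv the difference relative to the constant genes was -0.57 in TCF-1 cKO and -0.32 in WT. The CD8 T cell markers were also higher at day 7, and their part in the totals was not tested. Divided by the counts of the constant genes, Trbv went from 0.185, 0.197 and 0.161 to 0.115, 0.137 and 0.113 in TCF-1 cKO and from 0.204, 0.158 and 0.189 to 0.146, 0.163 and 0.13 in WT, where the stages overlapped.

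Gene by gene, edgeR's quasi-likelihood test over all genes called few Trav or Trbv genes between genotypes. Before transplant 0 of the 60 tested passed an FDR of 0.1, where 0.0373% of all 18757 genes tested passed, 0.016% higher and 0.0213% lower. At an unadjusted p under 0.05 there were 7 Trav and 4 Trbv genes, where 17.7% of all genes were. DESeq2 called 13 of 103 tested, where it called 8.96% of all genes, and voom in limma called 0, with 0.0107% of all genes. The median log2 fold change was -0.90 over the 40 Trav and -1.49 over the 20 Trbv genes tested, against 0.05 over all genes. At day 7, 9 of 90 were called, all lower in TCF-1 cKO, where 17.9% of 16026 genes passed, 2.51% higher and 15.4% lower. They were Trbv14 (log2 fold change -1.73, SE 0.48, adjusted p = 0.0572), Trbv30 (-5.15, SE 1.25, adjusted p = 0.0459), Trav12n-3 (-2.90, SE 0.77, adjusted p = 0.0520), Trav12-1, Trav3-1, Trav7d-2, Trav1 and the identical pair Trav9d-3 and Trav9n-3. The median log2 fold change was -0.74 over the 68 Trav and -0.22 over the 22 Trbv genes tested, against 0.15 over all genes. With any library but the one labelled WT post-transplant replicate 3 left out, 0 Trav or Trbv genes were called, and 0 to 2 genes of the whole table. Without that library 14 of 97 were called, 1 of them higher, where 29.1% of all genes were called.

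Between the stages most Trbv genes rose in the same fit, which compares levels and not shares. In TCF-1 cKO 38 of 64 Trav and Trbv genes tested were higher at day 7, 19 of 44 Trav and 19 of 20 Trbv, and none lower, where 36.5% of all genes passed, 19.7% higher and 16.8% lower. Trbv29 rose by a log2 fold change of 7.17 (SE 0.65, adjusted p = 0.000132), Trbv12-1 by 6.96 (SE 0.70, adjusted p = 0.000177) and Trav3-3 was among the Trav genes called. In WT 20 of 102 were called, where 20% of 16790 genes passed, 9.7% higher and 10.3% lower. Higher were 15 of the 22 Trbv genes tested and 4 of the 80 Trav genes, and Trav11 was lower while its copy Trav11d was higher. The genotype difference did not change between stages past the FDR for any of 112 genes tested (interaction in edgeR, 0.00465% of all genes called). At an unadjusted p under 0.05 there were 24, where 15.7% of all genes were. DESeq2 called 13 of 65 tested, with 9.87% of all genes, and voom 0, with 0.00465%. Without the library labelled WT post-transplant replicate 3, edgeR called 12 of 121, with 8.73% of all genes.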

How the data were processed

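Reads from cDNA libraries (SMART-Seq HT, Nextera XT) were pseudoaligned by the authors with kallisto 0.46.2, per the labels, which also name limma and the build mm9. For each of 117497 transcripts the authors deposited an estimated count, unscaled, and a TPM value scaled for effective length and depth. The transcript release is not given in the sources used here. Transcripts were joined without version numbers to GENCODE M21 (GRCm38), which held 116374 of them, and the lengths of Trav, Trbv and Traj transcripts were checked against it and were equal. Estimated counts were summed per gene. Shares used the sums as they were, and counts were rounded for edgeR and for thinning.

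Members and lists were chosen with earlier results of these data known. The tests of Trbv position and several alternatives for position (GC content and length, thinning, pseudogenes, d and n copies, unique words, dv genes) were chosen after seeing the data. Levels were tested with edgeR 4.0.16 (TMM, filterByExpr, quasi-likelihood, Benjamini-Hochberg adjustment over all genes, FDR 0.1), each comparison on its 6 libraries and the interaction on all 12, and single values by exact permutation over libraries. Alternatives used DESeq2 1.42.0, limma 3.58.1 (voom), loess trends (span 0.4, degree 2) and 100 thinning draws. Methods were tested on simulated data. Computations used R 4.3.3, Python 3.11.15 and pandas 2.3.3.

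Named genes were, per locus, the 10 highest mean shares, the top gene of each library, and per comparison up to 3 genes in each direction without overlap and with a mean share of at least 1%, beside Trav1, Trav11, Trav11d, the superantigen-binding Trbv list and Trbv31. Other genes named in the text were chosen after their values were seen. Reads over a V-J junction may match neither germline segment, and precision was limited by the locus counts, with 3 counts as the smallest level read.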

Additional observations from a re-analysis of the deposited data

How the results depend on the processing

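The genotype differences in Trav and Traj position were past the permutation threshold, in 1 direction, in every alternative run, and the genotype difference in the effective number of Trav genes in all but families. Summed into families, that difference was 1.06 before transplant, 0.19 at day 7 and 0.62 over both stages, and the stage difference in WT was 0.093. The stage difference in Trav genes was called by the inverse Simpson index (-11.6, permutation p = 0.02) and moved from -7.43 to 0.39 in TCF-1 cKO with libraries left out, the last without pre-transplant replicate 3. The stage difference in Trav position was not called without d and n copies (-4.08) or among genes with unique words (-6.43). For Trbv, the removal of GC content and length trends gave effective-number differences of -1.53 between genotypes and -0.68 between stages (permutation p = 0.01 and 0.045) and a distance of 0.000131 before transplant. In TCF-1 cKO the Trbv stage difference was 0.45 without pseudogenes, 0.47 by the inverse Simpson index and -1.33 to 0.42 with libraries left out. Leaving out libraries gave -1.10 to -0.23 for the Trbv effective number between stages (permutation p = 0.03 without TCF-1 cKO pre-transplant replicate 3), -0.063 to 0.030 for the Trbv distance before transplant, -1.07 to 0.12 and -1.08 to 0.11 for Trbv position between genotypes and between stages, and -2.79 to -1.501 for Traj position between stages (permutation p = 0.035 without the library labelled WT post-transplant replicate 3). The cause of these changes was not tested.

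Locus totals depended on the scale (log2 differences, none past the smallest permutation p of 0.1). At day 7 between genotypes the Trav total was -0.27 with TMM, -0.12 in TPM and -0.44 with GC and length trends removed, and the Trbv total -0.12, -0.052 and -0.66, with -0.27 against constant genes and -0.17 to 0.71 with libraries left out (-0.17 without WT post-transplant replicate 2). Against constant genes Trav was 0.58 before transplant, and between stages Trav was -0.61 in WT and -0.79 in TCF-1 cKO and Trbv -0.32 and -0.57. In TPM the Trav stage difference in WT was -0.065.

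Calls of single genes depended on the tool. DESeq2 called 13 before transplant, 22 at day 7, 36 between stages in WT and 13 in the interaction, where it called 8.96%, 22%, 25% and 9.87% of all genes, against 17.9% at day 7 and 20% in WT by edgeR. Without a filter on low counts there were 3 before transplant and 1 in the interaction. At day 7 an FDR of 0.05 left 1 and families 4. Libraries left out gave 0 to 14 at day 7, 0 to 4 before transplant (4 without TCF-1 cKO replicate 3) and 0 to 12 in the interaction. With the replicate number as a block 3 were called at day 7 (12.7% of all genes), and 0 with GC and length trends removed as well. Deviations of same-numbered libraries correlated between -0.134 and 0.165, so the numbers were not taken to pair them. The block called 0, 20, 36 and 0 in the other comparisons. TCF-1 cKO libraries before transplant held 20 to 50 Traj and 312 to 646 Trav counts, so that 3 counts were 6% to 15% of a Traj total.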
